A study of Gallus gallus with 12 samples.

Results

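NF-κB is the transcription factor family through which macrophages turn contact with bacteria into gene expression, and the genes described here encode its subunits and the proteins that hold them in check. The 10 genes were named as members of the pathway and matched by symbol, and 8 of them were found among the 16161 genes of the count table. They were the subunit genes NFKB1, NFKB2, REL and RELA, the inhibitor genes NFKBIA and NFKBIE, the related gene NFKBIZ, and TNFAIP3. RELB and BCL3 were not analysed here. All 8 genes passed the filter on low counts in every comparison, with at least 352 counts in each library.

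In resting cells, NF-κB dimers are held in the cytoplasm by inhibitor of κB (IκB) proteins. In the canonical route, Toll-like receptor signals activate the IκB kinase (IKK) complex, the inhibitors are degraded, and RELA and REL dimers with the NFKB1 product enter the nucleus. In the noncanonical route, the kinase encoded by MAP3K14 drives the processing of the NFKB2 precursor, which itself acts as an inhibitor until it is cut. Several of the inhibitors are known targets of NF-κB in mammals, so that their transcripts are read as feedback of the pathway.

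HD11 is an established chicken macrophage-like cell line. RNA-seq libraries were made from LPS cells, given 100 ng/mL lipopolysaccharide (LPS), the outer-membrane component that Toll-like receptor signalling detects, for 6 h, from SeMC+PBS cells, seeded in medium with 100 µM of the selenium amino acid Se-methylselenocysteine (SeMC) 12 h before the PBS challenge, and from Control cells, given PBS. There were 3 libraries in each group, and nothing in the labels says whether they came from separate cultures. The p-values therefore apply to differences between these libraries and may not extend to other cultures. A SeMC+LPS group was also deposited, but its counts equal the rounded-down means of the LPS and SeMC+PBS counts in 16160 of 16161 genes, NFKB2 being the exception, and it was left out of every comparison.

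The 9 libraries compared held 13451069 to 14018893 counts in LPS, 10656332 to 11531551 in SeMC+PBS and 14972385 to 17024392 in Control. Levels are given in CPM, the counts scaled to a common library size after TMM adjustment, and since gene length was not taken into account they are compared between groups, not between genes. A gene was called at a Benjamini-Hochberg adjusted p under 0.05 in edgeR's quasi-likelihood test and a fold change above 1.5. Fold changes of the 8 genes in these tests are given with a standard error (SE). It was taken as the absolute log2 fold change divided by the square root of the test's F statistic. All 14 macrophage markers examined had counts in each group, including CSF1R and SPI1, and their summed level was 5585 to 6026 CPM in LPS, 4066 to 4384 in SeMC+PBS and 4485 to 4770 in Control. LYZ and CD74 carried much of the sum in LPS. LYZ averaged 2085 CPM in LPS against 262 in Control, and CD74 2038 against 1303. In LPS/Control 4 of the 14 markers were called higher and 8 lower, while 12.0% of all genes tested were called. CSF1R and C1QB were among those lower, with log2 fold changes of -2.72 and -4.31. Summed T cell markers, 4 of 8 measured, stayed between 6.59 and 7.34 CPM in LPS, between 7.97 and 12.4 in SeMC+PBS and between 6.89 and 7.99 in Control, and the 3 B cell markers measured, of 5, between 0.298 and 0.695 in LPS, between 1.30 and 2.54 in SeMC+PBS and between 0.530 and 0.719 in Control. CD3D, which defines T cells, averaged 0.630 CPM in LPS, 0.722 in SeMC+PBS and 0.530 in Control, and CD3E had 1 to 4 counts in LPS, 0 in SeMC+PBS and 1 to 10 in Control. The single erythroid marker measured, of 6, had 0.0745 to 0.463 CPM in LPS, 1.09 to 2.33 in SeMC+PBS and 0.464 to 0.637 in Control. The 4 thrombocyte markers measured, of 5, summed to 345 to 381 CPM in LPS, 314 to 371 in SeMC+PBS and 428 to 451 in Control, nearly all of it from F13A1, which macrophages also express. Against this sum, ITGA2B and ITGB3 of the same list were called higher in SeMC+PBS/Control, with log2 fold changes of 1.03 and 1.41 at averages of 3.13 and 2.56 CPM in SeMC+PBS. JCHAIN of the B cell markers, HBBA of the erythroid markers and COL1A1 of the fibroblast markers were also called higher there, at 1.27, 1.85 and 15.0 CPM on average in SeMC+PBS. Of all genes tested there, 14.1% were called. JCHAIN had 0 to 2 counts in Control and 12 to 20 in SeMC+PBS, and HBBA had 7 to 11 and 12 to 27. JCHAIN and HBBA passed the filter on low counts only through their SeMC+PBS libraries, which favoured an increase. The 2 fibroblast markers measured, of 6, summed to 10.6 to 13.6 CPM in LPS, 13.5 to 18.1 in SeMC+PBS and 7.38 to 10.7 in Control. The part of these shifts in the results below was not tested.

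Called changes formed 2 patterns. NFKB1, NFKBIA, NFKBIE, NFKBIZ and TNFAIP3 rose with LPS and were not called with SeMC. NFKB2 rose with SeMC and was not called with LPS. REL and RELA were called in none of the 3 comparisons. In bulk RNA a change in the share of cells that express a gene cannot be told apart from a change in RNA per cell.

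**Figure D1:**
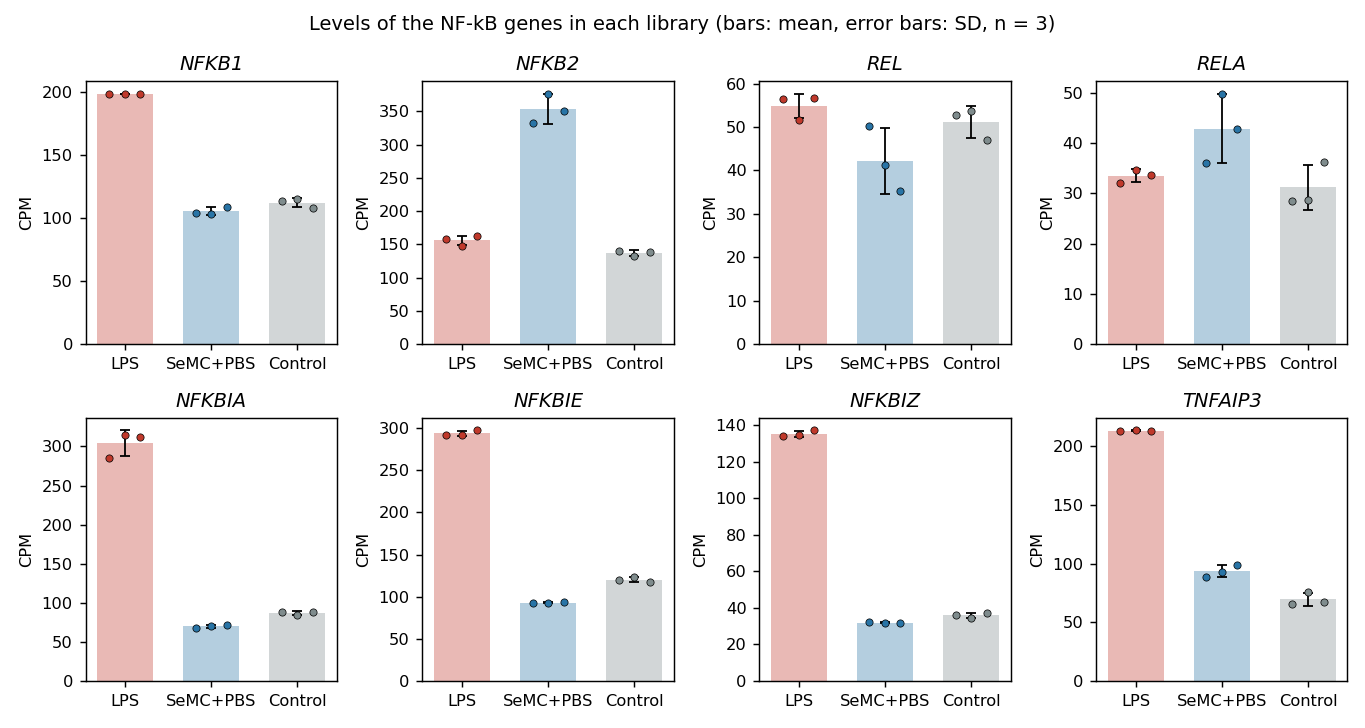
Levels of the 8 genes in CPM (vertical axes from 0, each gene on its own scale) in LPS, SeMC+PBS and Control libraries. Points are libraries, bars are means and error bars are SD (n = 3). The LPS libraries stand above all others for NFKB1, NFKBIA, NFKBIE, NFKBIZ and TNFAIP3, and the SeMC+PBS libraries, at 332 to 377 CPM, stand above all others for NFKB2.

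LPS/Control asked which members of the pathway respond to the bacterial stimulus. Of the 8 genes, 5 were called, all higher in LPS, while 12.0% of the 13008 genes tested were called. The median log2 fold change of the 8 genes was 1.06, against -0.0015 over all genes tested. The libraries of the compared groups did not overlap in 6 of the 8 genes, and in 46.1% of all genes tested. The largest increases were in NFKBIZ, NFKBIA, TNFAIP3 and NFKBIE, and the only subunit gene called was NFKB1.

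NFKB1 (chromosome 4 of GRCg7b, 60304611 to 60362176) encodes the precursor of the p50 subunit, the partner of RELA and REL in canonical dimers. It had 199, 198 and 198 CPM in the LPS libraries, against 113, 115 and 108 CPM in the Control libraries. The groups did not overlap, and the LPS libraries were nearly identical. The difference was 1.77-fold, a log2 fold change of 0.82 (SE 0.0526, edgeR adjusted p = 1.03e-08). MANBA, which overlaps NFKB1 over 3666 bases, went the other way with a log2 fold change of -0.80, called lower in LPS.

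NFKB2 (chromosome 6, 17699955 to 17708379) encodes the p52 precursor of the noncanonical route. It had 158, 148 and 162 CPM in LPS, against 141, 133 and 139 CPM in Control. Each LPS library was above each Control library, but the difference was small, with a log2 fold change of 0.18 (SE 0.0551), and the gene was not called. Its adjusted p of 0.0183 from edgeR was above 0.05 in 6 of 16 alternative fits, among them those without LPS replicate 1, LPS replicate 3 or Control replicate 2, with a range of 0.0176 to 0.316.

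REL (chromosome 3, 2114854 to 2148940) encodes c-Rel, the cellular form of an oncogene carried by an avian retrovirus. Its level was 56.4, 51.7 and 56.7 CPM in LPS, against 52.8, 53.8 and 47.1 CPM in Control. RELA (chromosome 39, 13724 to 21836) encodes p65, the main activating subunit of the canonical route. It had 32.1, 34.7 and 33.6 CPM in LPS, against 28.5, 28.7 and 36.3 CPM in Control. For both genes the groups overlapped. The log2 fold changes were 0.10 (SE 0.0767) for REL and 0.10 (SE 0.0959) for RELA, and the edgeR adjusted p was 0.332 for REL and 0.452 for RELA. Neither difference passed the test.

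NFKBIA (chromosome 5, 35701640 to 35705164) encodes IκBα, the inhibitor that is degraded and then resynthesised during canonical signalling. It had 285, 315 and 313 CPM in LPS, against 88.5, 84.4 and 88.5 CPM in Control. The increase was 3.49-fold, a log2 fold change of 1.80 (SE 0.0550, edgeR adjusted p = 1.76e-12), rank 155 by size of increase among the 13008 genes tested. NFKBIE (chromosome 3, 29941660 to 29949752) encodes IκBε, which also holds REL and RELA dimers in the cytoplasm. Its level was 292, 292 and 297 CPM in LPS, against 120, 123 and 117 CPM in Control, an increase of 2.45-fold (log2 fold change 1.29, SE 0.0504, edgeR adjusted p = 2.86e-11). Neither gene overlaps another annotated gene.

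NFKBIZ (chromosome 1, 85658140 to 85674660) encodes IκBζ, a nuclear member of the family that, in mice, is needed with NF-κB for a set of secondary response genes. It had 134, 134 and 137 CPM in LPS, against 35.9, 34.4 and 37.2 CPM in Control. At 3.77-fold it had the largest increase of the 8 genes, with a log2 fold change of 1.91 (SE 0.0607, edgeR adjusted p = 2.73e-12) and rank 140 of 13008. The lncRNA LOC124417086 overlaps it over 8293 bases and was called higher as well, with 17.5 ± 1.66 CPM in LPS and 8.30 ± 0.286 in Control (SD, n = 3 each). Whether the counting used strand is not given in the sources used here, so reads of these overlapping genes may not be told apart.

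TNFAIP3 (chromosome 3, 54259219 to 54283849) encodes A20, a ubiquitin-editing enzyme that switches off signalling upstream of IKK. It had 213, 214 and 213 CPM in LPS, against 65.6, 76.1 and 67.2 CPM in Control. The LPS libraries were again nearly identical and well above the Control libraries. The increase was 3.07-fold, a log2 fold change of 1.62 (SE 0.0636, edgeR adjusted p = 3.25e-11).

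**Figure D2:**
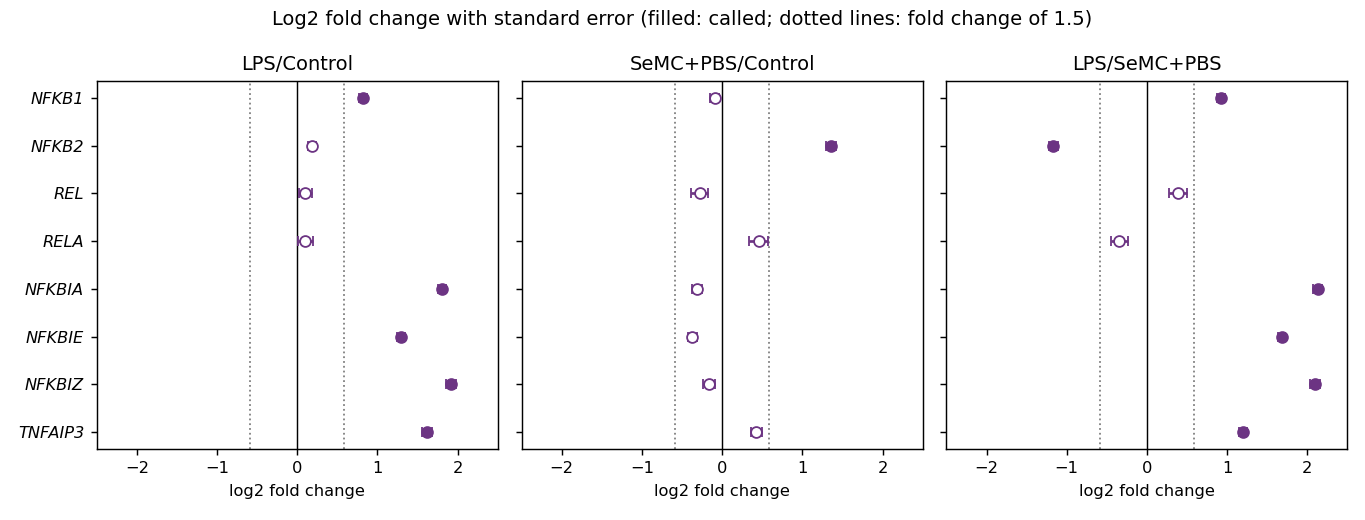
Log2 fold change (horizontal axes) of the 8 genes in LPS/Control, SeMC+PBS/Control and LPS/SeMC+PBS. Standard errors were derived from the F statistic of edgeR's fit of 3 against 3 libraries. Filled points are genes called and dotted lines mark a fold change of 1.5. In SeMC+PBS/Control NFKB2, at 1.36, is the gene called.

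SeMC+PBS/Control asked what the selenium compound did to the same genes without LPS. NFKB2 was called higher and none of the other 7 genes was called, while 14.1% of the 13146 genes tested were called. Without the fold-change minimum, 6 of the 8 genes had an adjusted p under 0.05, 3 higher and 3 lower, and the background was then 39.3%. The median log2 fold change of the 8 genes was -0.13, against 0.0010 over all genes tested. The groups did not overlap in 5 of the 8 genes, and in 50.9% of all genes tested. Both comparisons with Control use the same Control libraries.

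NFKB2 had 332, 377 and 350 CPM in SeMC+PBS, against 141, 133 and 139 CPM in Control. The difference was 2.57-fold, a log2 fold change of 1.36 (SE 0.0597, edgeR adjusted p = 1.15e-09). By its p-value it ranked 2 among the 13146 genes, and by the size of the increase 543. The log2 fold change lay between 1.29 and 1.42 in 16 alternative fits. PSD, which overlaps NFKB2 over 170 bases, had 20.0 ± 1.61 CPM in SeMC+PBS and 17.6 ± 1.85 in Control (SD, n = 3 each). Its log2 fold change was 0.19, and it was not called here. In LPS/Control PSD was called higher, at a log2 fold change of 0.93.

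The other subunit genes gave smaller differences. NFKB1 had 104, 103 and 109 CPM in SeMC+PBS, against 113, 115 and 108 CPM in Control, and the groups overlapped (log2 fold change -0.09, SE 0.0574, edgeR adjusted p = 0.209). RELA had 36.1, 49.9 and 42.8 CPM in SeMC+PBS, against 28.5, 28.7 and 36.3 CPM in Control. Its lowest SeMC+PBS library and its highest Control library overlapped. The log2 fold change of RELA was 0.45 (SE 0.115, edgeR adjusted p = 0.00599), under the fold-change minimum, and the adjusted p was above 0.05 without replicate 2 (0.0789) and with limma on quantile-normalized counts (0.109). RELA shares its whole span with LOC107051159 and parts of it with 4 other genes, so its counts are uncertain. Of the overlapping genes, none was called in SeMC+PBS/Control. Their log2 fold changes were 0.58 for LOC121108806 (edgeR adjusted p = 0.013), 0.32 for CDC42EP2 (0.0242), 0.44 for LOC107051159 (0.0633), 0.14 for DPF2 (0.121) and -0.45 for KAT5 (0.00228).

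REL had 50.3, 41.2 and 35.2 CPM in SeMC+PBS, against 52.8, 53.8 and 47.1 CPM in Control. SeMC+PBS replicate 1 lay within the Control range and the other SeMC+PBS libraries below it. The log2 fold change of REL was -0.28 (SE 0.106, edgeR adjusted p = 0.0481). Without SeMC+PBS replicate 3 it was -0.16 with an adjusted p of 0.228, and the adjusted p was under 0.05 in 7 of 16 alternative fits. SeMC+PBS replicate 1 was thus the library with the highest REL and the lowest RELA level of its group, and without it the log2 fold changes were -0.42 for REL and 0.57 for RELA.

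The cytoplasmic inhibitors were lower in SeMC+PBS by less than the fold-change minimum. NFKBIA had 67.9, 70.4 and 71.7 CPM in SeMC+PBS, against 88.5, 84.4 and 88.5 CPM in Control, a log2 fold change of -0.32 (SE 0.0614, edgeR adjusted p = 0.001). NFKBIE had 92.1, 92.6 and 93.2 CPM in SeMC+PBS, against 120, 123 and 117 CPM in Control, a log2 fold change of -0.38 (SE 0.0559, edgeR adjusted p = 0.000146). In both genes the groups did not overlap, and the adjusted p stayed under 0.05 in all 16 alternative fits. NFKBIZ had 32.3, 31.8 and 31.6 CPM in SeMC+PBS, against 35.9, 34.4 and 37.2 CPM in Control, with a log2 fold change of -0.17 (SE 0.0764) that was not significant (adjusted p = 0.0927 from edgeR). The groups did not overlap in NFKBIZ either. Its adjusted p was under 0.05 in 1 of 16 alternative fits, at 0.0492 in the single edgeR fit of the 9 libraries.

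TNFAIP3 differed from NFKBIA and NFKBIE in its sign. It had 89.0, 93.3 and 99.1 CPM in SeMC+PBS, against 65.6, 76.1 and 67.2 CPM in Control. The groups did not overlap, and the difference was 1.35-fold, a log2 fold change of 0.43 (SE 0.0716, edgeR adjusted p = 0.000345), also under the fold-change minimum. The adjusted p was under 0.05 in all 16 alternative fits, with a highest value of 0.0297.

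LPS/SeMC+PBS compared the treated groups directly, and so tested whether the effects of LPS and SeMC differed. Of the 8 genes 6 were called, 5 higher and 1 lower in LPS, while 22.9% of the 12979 genes tested were called. The groups did not overlap in any of the 8 genes, nor in 61.3% of all genes tested. NFKBIA was 4.38-fold higher in LPS (log2 fold change 2.13, SE 0.0561), NFKBIZ 4.26-fold (2.09, SE 0.0600) and NFKBIE 3.20-fold (1.68, SE 0.0472). TNFAIP3 was 2.30-fold (SE 0.0530 on the log2 scale) and NFKB1 1.90-fold (0.93, SE 0.0488) higher. NFKB2 was lower in LPS than in SeMC+PBS by 2.25-fold, with a log2 fold change of -1.17 (SE 0.0581). The adjusted p-values of these 6 genes from edgeR lay between 4.51e-12 and 4.76e-09. REL (0.39, SE 0.109) and RELA (-0.34, SE 0.104) had log2 fold changes under the minimum in opposite directions. The edgeR adjusted p was 0.00856 for REL and 0.0126 for RELA. It was under 0.05 in 14 of 16 alternative fits for REL and in 11 of 16 for RELA.

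Over the 3 groups, the order of the levels was LPS, Control, SeMC+PBS for NFKBIA and NFKBIE, with no overlap between neighbours. NFKBIZ and NFKB1 had the same order of means, but Control and SeMC+PBS did not differ significantly in the test of their 6 libraries. These groups overlapped for NFKB1 and did not overlap for NFKBIZ. For TNFAIP3 the order was LPS, SeMC+PBS, Control, and for NFKB2 it was SeMC+PBS, LPS, Control, where the small difference between LPS and Control depended on the fit. For RELA the means followed SeMC+PBS, LPS, Control, with overlap between LPS and Control, and for REL they followed LPS, Control, SeMC+PBS, with overlap between LPS and Control and between Control and SeMC+PBS.

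Ratios of counts within a library do not depend on the scaling between libraries. The NFKB2:NFKB1 ratio was 0.794, 0.748 and 0.819 in LPS and 3.21, 3.65 and 3.22 in SeMC+PBS, against 1.24, 1.15 and 1.28 in Control, so that the treatments moved it in opposite directions without overlap. The ratio of the inhibitor NFKBIA to NFKB1 was 1.44, 1.59 and 1.58 in LPS and 0.655, 0.682 and 0.659 in SeMC+PBS, against 0.781, 0.734 and 0.819 in Control. TNFAIP3:NFKBIA was 1.31, 1.33 and 1.38 in SeMC+PBS, above the 0.741, 0.902 and 0.759 of Control, whereas in LPS it was 0.747, 0.679 and 0.683 and overlapped Control. NFKBIZ:NFKBIA had the narrowest range of these ratios, at 0.426 to 0.468 in LPS and 0.441 to 0.476 in SeMC+PBS, both above the 0.406 to 0.420 of Control. The RELA:REL ratio was 0.717, 1.21 and 1.21 in SeMC+PBS, with replicate 1 inside the Control range of 0.533 to 0.771. These ratios are descriptions and were not tested.

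**Figure D3:**
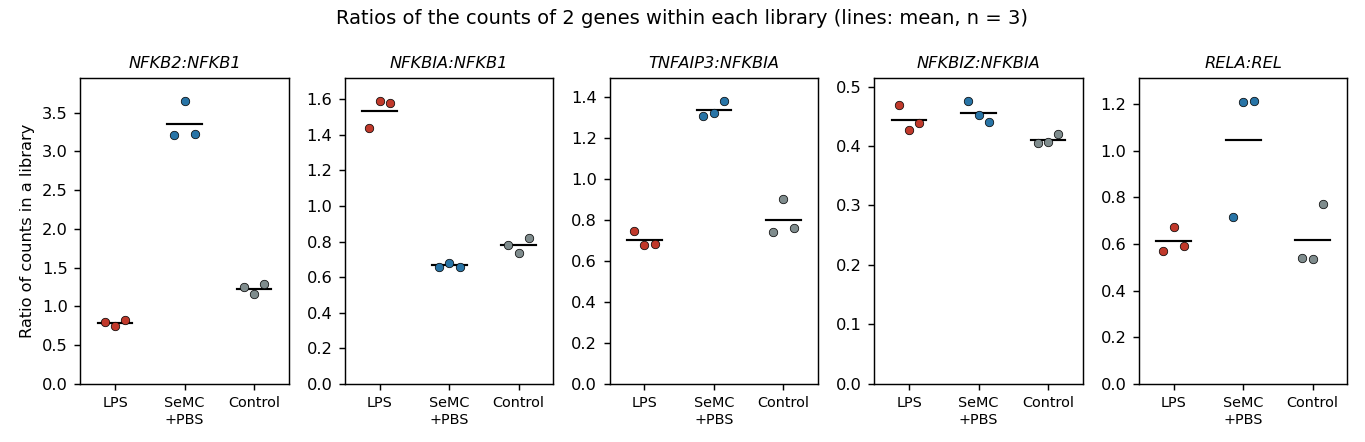
Ratio of the counts of 2 genes within each library (vertical axes from 0) in LPS, SeMC+PBS and Control libraries, with lines at the means (n = 3). NFKB2:NFKB1 averages 0.787 in LPS and 3.36 in SeMC+PBS, against 1.23 in Control, and NFKBIZ:NFKBIA varies least.

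NFKB2 was compared with the 9217 genes that averaged 100 counts or more, with LOC symbols left out. The genes most like it in pattern over the 9 libraries were ACBD4, NHEJ1, DYSF, FANCF and PAF1. Their Pearson correlations with NFKB2 in log2(CPM + 1) were 0.994, 0.993, 0.991, 0.990 and 0.989. These values describe 3 groups of 3 libraries and mostly reflect the group means, so they carry no p. ACBD4 had 33.5 ± 0.721 CPM in LPS and 70.2 ± 6.26 in SeMC+PBS, against 29.5 ± 2.45 in Control (SD, n = 3 each). Their log2 fold changes, which the choice by likeness fixes in direction and which are given as a description, were 0.82 to 1.25 in SeMC+PBS/Control and 0.16 to 0.21 in LPS/Control.

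The machinery upstream of the subunits was examined through lists of other pathway genes. In LPS/Control, 3 of 19 tested IKK complex and kinase genes were called higher and 1 lower, against 12.0% of all genes called. The median log2 fold change of the list was -0.0087. In SeMC+PBS/Control none of the 19 was called, against 14.1% of all genes. Without the fold-change minimum, 1 was higher and 5 lower there at an adjusted p under 0.05, against 39.3% of all genes in either direction. The IKK core genes were not called in either comparison with Control. CHUK, which encodes IKKα, had 57.4 ± 5.27 CPM in LPS and 57.7 ± 3.27 in SeMC+PBS, against 61.3 ± 3.47 in Control (SD, n = 3 each). IKBKB, which encodes IKKβ, had 56.5 ± 2.16 CPM in LPS and 61.3 ± 4.08 in SeMC+PBS, against 57.6 ± 2.08 in Control (SD, n = 3 each). IKBKG, the scaffold of the complex, had log2 fold changes of 0.23 in LPS/Control (edgeR adjusted p = 0.0161) and 0.02 in SeMC+PBS/Control (edgeR adjusted p = 0.859). The increase with LPS was under the fold-change minimum, and the LPS and Control libraries did not overlap.

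MAP3K14, the kinase of the noncanonical route, had 381 ± 0.462 CPM in LPS and 208 ± 16.4 in SeMC+PBS, against 206 ± 12.7 in Control (SD, n = 3 each). It rose 1.85-fold in LPS/Control (log2 fold change 0.89, SE 0.0540, edgeR adjusted p = 5.91e-09) and had a log2 fold change of 0.02 in SeMC+PBS/Control (adjusted p = 0.854 from edgeR). Whether the transcript level of MAP3K14 bears on that of NFKB2 was not tested. MAP3K8, a kinase bound by the NFKB1 precursor, had the largest increase of the list in LPS/Control, at a log2 fold change of 1.06. In SeMC+PBS/Control its log2 fold change was -0.47 (edgeR adjusted p = 0.00834), under the fold-change minimum.

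Of 12 tested TRAF and IAP genes, which encode adaptors and ubiquitin ligases between receptors and IKK, 7 were called higher in LPS/Control and none lower, with a median log2 fold change of 0.68, against 12.0% of all genes called. BIRC2, an IAP family gene, had 234 ± 8.42 CPM in LPS and 44.3 ± 1.90 in SeMC+PBS, against 57.8 ± 0.217 in Control (SD, n = 3 each), a rise of 4.05-fold in LPS/Control. TRAF2 rose 2.95-fold. In SeMC+PBS/Control TRAF4 was the single gene of this list called, while 14.1% of all genes tested were called. It was higher with a log2 fold change of 0.86, at 63 to 75 counts in SeMC+PBS and 48 to 60 in Control. Without the fold-change minimum, 2 genes of the list were higher and 6 lower in this comparison at an adjusted p under 0.05. The share of all genes was then 39.3%, and the list median log2 fold change was -0.12. TRAF4 was called higher in LPS/Control as well, at 0.61 (SE 0.218, edgeR adjusted p = 0.0427), with 53 to 76 counts in LPS. At 1.52-fold, this call was close to both thresholds.

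Of 15 tested genes for ubiquitin editors and other brakes on the pathway, 5 were called higher in LPS/Control and none lower, against 12.0% of all genes called, and the median log2 fold change was 0.11. TNIP2, a partner of A20, had 87.0 ± 4.57 CPM in LPS, against 35.8 ± 1.49 in Control (SD, n = 3 each), a rise of 2.43-fold. TNIP3, another of the 5, had a larger log2 fold change of 2.61 on few counts, 12 to 29 in LPS against 2 to 6 in Control. It passed the filter on low counts only through its LPS libraries, which favoured an increase. Of the 14 brakes tested in SeMC+PBS/Control none was called, against 14.1% of all genes. Without the fold-change minimum, 3 of these brakes were higher and 2 lower, against 39.3% of all genes in either direction. Of 10 other IκB and nuclear regulators, none was called in LPS/Control or SeMC+PBS/Control, against 12.0% and 14.1% of all genes. Without the fold-change minimum, 4 were higher and 0 lower in LPS/Control, against 4491 of the 13008 genes tested in either direction. In SeMC+PBS/Control 1 was then higher and 2 lower, against 39.3% of all genes. In LPS/SeMC+PBS, where 22.9% of all genes were called, NFKBIB was the 1 of these 10 called. It encodes IκBβ and was higher in LPS, with a log2 fold change of 0.82. Against Control, NFKBIB had log2 fold changes of 0.53 in LPS (edgeR adjusted p = 6.69e-05) and -0.28 in SeMC+PBS (edgeR adjusted p = 0.0143). Both were under the fold-change minimum. Among 8 receptors and ligands of the noncanonical route, CD40 (0.85) and TNFRSF9 (0.73) were called higher in LPS/Control, against 12.0% of all genes. None of this list was called in SeMC+PBS/Control, against 14.1% of all genes. Without the fold-change minimum, 1 was higher and 1 lower there, against 39.3% of all genes in either direction. The median of this list in LPS/Control was -0.36, and TNFRSF1B, a TNF receptor gene named after its values were seen, had a log2 fold change of -0.51 (edgeR adjusted p = 6.92e-06), under the fold-change minimum.

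**Figure D4:**
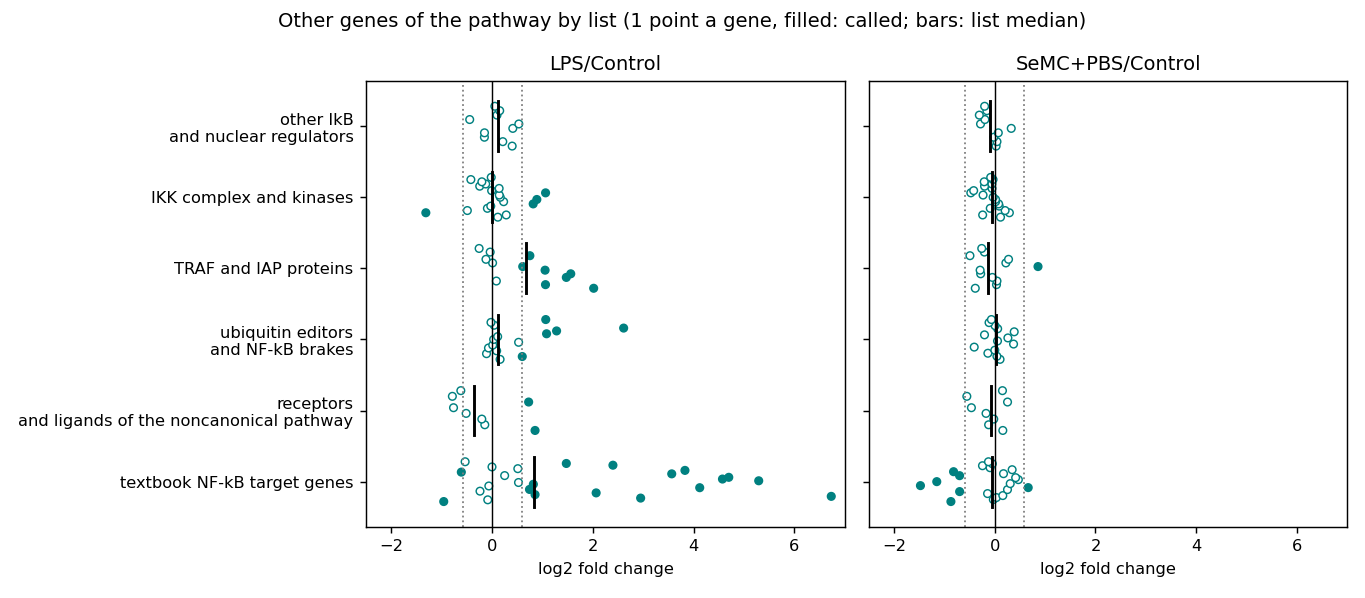
Log2 fold change (horizontal axes) of the other pathway genes in LPS/Control and SeMC+PBS/Control, by list. Each point is a gene, filled where called, bars are list medians and dotted lines mark a fold change of 1.5. In LPS/Control 14 of 24 NF-κB target genes lie beyond the line as called increases, while in SeMC+PBS/Control 1 of 21 does and 6 are called decreases. Of all genes tested, 12.0% were called in LPS/Control and 14.1% in SeMC+PBS/Control. CCL5, CSF3 and TNFAIP6, among the 14, passed the filter on low counts only through their LPS libraries.

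Transcripts of textbook targets of NF-κB were examined as well, while the activity of NF-κB itself is not measured by RNA counts. In LPS/Control 14 of 24 tested targets were called higher and 2 lower, with a median log2 fold change of 0.84, while 12.0% of all genes tested were called. Of the 14, CCL5, CSF3 and TNFAIP6 passed the filter on low counts only through their LPS libraries, which favoured an increase. They had 4 to 8, 5 to 17 and 0 to 8 counts in Control and are part of the median. CCL5, a chemokine gene, had 43.2 ± 2.94 CPM in LPS, against 0.399 ± 0.134 in Control (SD, n = 3 each), and a log2 fold change of 6.73. IL1B, the gene of the cytokine interleukin-1β, had 968 ± 56.3 CPM in LPS and 11.1 ± 0.850 in SeMC+PBS, against 24.7 ± 3.78 in Control (SD, n = 3 each). The targets called lower in LPS were BCL2A1 (-0.96) and PLAU (-0.61), which act in cell survival and plasminogen activation, and both were also called lower in SeMC+PBS/Control, at -0.87 and -0.82. CD40 and TRAF1 are counted both here and in another list.

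In SeMC+PBS/Control 1 of 21 tested targets was called higher and 6 lower, with a median log2 fold change of -0.05, while 14.1% of all genes tested were called. Without the fold-change minimum, 5 targets were higher and 7 lower at an adjusted p under 0.05, against 39.3% of all genes in either direction. The chemokine genes IL8L1 and IL8L2, named after their values were seen, were among those higher, with log2 fold changes of 0.47 (edgeR adjusted p = 0.0169) and 0.42 (edgeR adjusted p = 0.00535). IL10, the gene of an anti-inflammatory cytokine, had 1.81 ± 0.323 CPM in SeMC+PBS, against 5.02 ± 0.465 in Control (SD, n = 3 each), a log2 fold change of -1.47 on 18 to 24 counts in SeMC+PBS and 71 to 85 in Control. IL1B fell by 1.15 on the log2 scale (SE 0.127, edgeR adjusted p = 1.31e-05). GADD45B, a stress response gene, was the target called higher, with 21.3 ± 2.72 CPM in SeMC+PBS and 13.4 ± 2.46 in Control (SD, n = 3 each). Of the 14 targets that rose with LPS, CCL5, CSF3 and TNFAIP6 did not pass the filter on low counts in SeMC+PBS/Control. Of the others IL1B and IL10 were called there, both lower, while 14.1% of all genes tested were called. IL8L1, IL8L2, CD40 and CSF1, also among them, were higher at an adjusted p under 0.05 from edgeR, with fold changes under the minimum.

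In the SeMC+LPS columns, the other 7 genes equal the means of LPS and SeMC+PBS and hold no measurement of their own. NFKB2 was listed there with 5798, 6342 and 5972 counts, where the LPS libraries had 2041, 1989 and 2139 counts and the SeMC+PBS libraries 3919, 4165 and 4055. How these counts arose is not known, and they entered no test.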

How the data were processed

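Reads were filtered by the authors, mapped with Hisat2 to GRCg7b and counted by gene with HTSeq, and the deposited table holds raw counts by gene symbol, without normalization. Versions, annotation release and strand setting are not given in the sources used here. Samples were grouped by their titles. LPS/Control, SeMC+PBS/Control and LPS/SeMC+PBS were each tested on their 6 libraries with edgeR 4.0.16 in R 4.3.3 (TMM, filterByExpr at 10 counts, quasi-likelihood test across all genes tested, Benjamini-Hochberg adjustment), after checks on simulated counts. Levels used TMM over the 9 libraries. The study used limma, which was tried here as an alternative.

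The alternatives were limma 3.58.1 on quantile-normalized log2(count + 1), which also left out the count filter, limma-voom, DESeq2 1.42.0, edgeR with RLE size factors, edgeR without the count filter, a single fit of the 9 libraries, a replicate block, fold changes above 1.2 or without minimum, and each replicate number left out. Leaving out single libraries was added after seeing the data.

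The genes and lists were chosen with earlier results of these data known. All members were named, and from each list up to 2 called genes with the largest rise and up to 2 with the largest fall in a comparison, with CHUK, IKBKB, IKBKG and MAP3K14. Some genes that this rule or the lists name are not reported here. Coordinates are 1-based on GRCg7b from RefSeq, where 16154 of the symbols were found. Planned levels per kilobase and sequence features were not analysed here.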

Additional observations from a re-analysis of the deposited data

Results flagged for a closer look

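The NFKB2 counts of the SeMC+LPS libraries stood out as a signal in samples that no comparison used. They were 5798, 6342 and 5972 counts in SeMC+LPS, beside 2126, 2033 and 2397 counts in Control. No level relative to library size is given, since the SeMC+LPS totals are sums of averaged counts. The SeMC+LPS counts were 1.95, 2.06 and 1.93 times the means of the LPS and SeMC+PBS counts of the same replicate number, which were 2980, 3077 and 3097. The sums of those counts were 5960, 6154 and 6194. NFKB2 was the 1 gene of 16161 in which the SeMC+LPS counts differed from the means, and the cause was not tested.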

How the results depend on the processing

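The 8 genes kept their direction, and their call or lack of one, in each comparison under every alternative fit that kept the fold-change minimum. The number of all genes called moved most with that minimum. Above 1.2-fold and with no minimum, it was 3597 and 4491 in LPS/Control against 1567, 4111 and 5172 in SeMC+PBS/Control against 1850, and 5883 and 7051 in LPS/SeMC+PBS against 2971. In SeMC+PBS/Control 6 of the 8 genes passed at both settings, against 1, while 4111 and 5172 of the 13146 genes tested passed. In LPS/SeMC+PBS 8 of the 8 passed at both settings, against 6, beside 5883 and 7051 of 12979 genes. In LPS/Control 5 passed above 1.2-fold and 6 with no minimum, against 5, beside 3597 and 4491 of 13008 genes. With each replicate number left out the counts were 1370 to 1592, 1606 to 1685 and 2748 to 3057 in the same order of comparisons. With limma on quantile-normalized counts, which also left out the count filter, 41.1% of the genes called in SeMC+PBS/Control were higher, against 60.4% with edgeR, 56.5% with edgeR without the filter and 61.0% with limma-voom. The replicate block gave 1523, 1844 and 2971 genes and changed no call of the 8 genes. Same-numbered libraries deviated from their group means with correlations across 10124 genes of -0.205 to 0.087, and not every library correlated best with its own number, so the numbers were not treated as pairs. The alternative on gene length was not run. No fit at reduced depth was run, and IL10 rested on 18 to 24 counts in SeMC+PBS.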

Other observations

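The spread between replicates was below that of counting alone, taken as 100 divided by the square root of the mean count, for 5 of the 8 genes in LPS (NFKB1, RELA, NFKBIE, NFKBIZ and TNFAIP3), 3 in SeMC+PBS (NFKBIA, NFKBIE and NFKBIZ) and 1 in Control (NFKBIZ). Over the 10124 genes for which every library reached 50 counts, 28.7%, 30.7% and 23.8% were below it in the same groups. TNFAIP3 had a coefficient of variation of 0.120% in LPS against 1.88% from counting, and NFKB1 had 0.138% against 1.96%. With 3 libraries a coefficient of variation is itself uncertain, and no test was made.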
